A study of Mus musculus with 6 samples.

Results

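Adgrl1, Tjp3, Camkv and Arsi are genes best known from neural or epithelial tissue that stood lower in PRDM15 knockout than in wild type lymphoma B cells. They were taken by symbol from the 21448 genes of the deposited table, and each of the 4 symbols matched 1 row. All 4 were among the 10533 genes with a mean level of at least 1 that were tested. They were chosen by their measured levels, selected on being lower in the knockout libraries of this same contrast, so their own differences are a description and carry no test. RNA-seq covered 6 libraries, of which 3 carry the genotype label wild type and 3 the label PRDM15 KO. All came from primary lymphoma B cells of E mu-Myc transgenic mice, which carry a Myc transgene that drives B cell lymphoma, and all cells were grown in culture with IL7. Per the labels' protocols, 4-hydroxytamoxifen (OHT) at 50 nM served to delete Prdm15 and ethanol was the control, each for 24 hours, with collection 3 days later. The titles give only group and replicate number, so which libraries had OHT is inferred from the genotype label, and an effect of OHT cannot be told apart from one of the deletion. The labels give neither the age nor the number of the mice.

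Adgrl1 encodes latrophilin-1, an adhesion G protein-coupled receptor that is abundant at presynaptic terminals. It is the receptor of a black widow spider venom toxin and binds teneurins and FLRT proteins on facing cells. Tjp3 encodes ZO-3, a scaffold with PDZ domains that ties claudins and occludin to actin at the tight junctions of epithelia. Camkv encodes a protein built like a calmodulin-dependent kinase that lacks kinase activity and sits on neuronal vesicles. Arsi encodes arylsulfatase I, of the enzyme family that removes sulfate groups and depends on an activating enzyme, SUMF1, that converts a cysteine in the active site.

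The start sites are shown because the genes moved in the same direction and a reader may wish to compare the sequence before each start. Each line gives the 250 bases before a RefSeq start, 5′ to 3′ in the direction of the gene, from RefSeq on GRCm38.p6, a later build than the mm9 named for these reads. Capitals mark matches, on either strand, to CACGTG (the E-box core bound by MYC and related factors) or to ACGTG or GCGTG (the core bound by hypoxia-inducible factors). Every CACGTG also holds ACGTG on each strand, so these matches overlap. Tjp3 has 2 starts in that table, and no sequence of Arsi is shown here.
Adgrl1, chr8:83899848-83900097, plus strand: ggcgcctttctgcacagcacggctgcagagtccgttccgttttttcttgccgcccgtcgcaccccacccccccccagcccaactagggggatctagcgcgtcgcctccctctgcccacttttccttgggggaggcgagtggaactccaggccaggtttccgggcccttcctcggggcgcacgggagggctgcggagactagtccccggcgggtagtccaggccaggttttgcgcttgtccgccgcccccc
Tjp3, first start, chr10:81291582-81291831, minus strand: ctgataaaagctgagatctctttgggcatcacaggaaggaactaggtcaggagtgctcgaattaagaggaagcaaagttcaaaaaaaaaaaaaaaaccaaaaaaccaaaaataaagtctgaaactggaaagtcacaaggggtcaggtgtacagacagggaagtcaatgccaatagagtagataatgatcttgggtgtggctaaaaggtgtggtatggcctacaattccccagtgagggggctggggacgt
Tjp3, second start, chr10:81291268-81291517, minus strand: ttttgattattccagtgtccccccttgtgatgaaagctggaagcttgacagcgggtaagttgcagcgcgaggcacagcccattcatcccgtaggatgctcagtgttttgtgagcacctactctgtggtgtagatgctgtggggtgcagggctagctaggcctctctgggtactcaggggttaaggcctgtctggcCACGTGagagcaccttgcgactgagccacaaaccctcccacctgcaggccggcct
Camkv, chr9:107935670-107935919, plus strand: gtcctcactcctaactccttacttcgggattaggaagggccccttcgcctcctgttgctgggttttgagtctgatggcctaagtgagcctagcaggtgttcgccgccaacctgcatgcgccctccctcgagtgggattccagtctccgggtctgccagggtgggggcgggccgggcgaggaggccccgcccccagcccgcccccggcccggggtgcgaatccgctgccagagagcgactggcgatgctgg
The windows of Adgrl1 and Camkv were rich in G and C (68.8% and 67.6%, against a median of 52.4% over 32851 such windows) and held 21 and 18 CpG dinucleotides, against a median of 6. Those of Tjp3 held 43.2% and 57.2% G and C, with 2 and 7 CpG dinucleotides. The CACGTG core was found only before the second start of Tjp3, 55 bases upstream, among the 4 windows shown, and 6.02% of all windows held it. The ACGTG or GCGTG core had no match beyond the overlapping ones there, while 38.6% of all windows held at least 1.

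The libraries held 28852951 to 47255421 reads assigned to genes. Levels are given in CPM, that is, a gene's reads scaled by the effective size of the library they came from, without division by gene length. Prdm15 itself had 29.2, 47.3 and 41.3 CPM in the wild type libraries, in replicate order, and 40.2, 40.9 and 39.2 CPM in those labelled knockout, a sum over the whole gene that does not check the deletion. Libraries of the same replicate number deviated together from their group means, so differences are also given within replicate pairs. Macrophage transcripts were high in knockout replicates 2 and 3: the summed level of 17 myeloid markers was 61.5 to 213 in wild type and 39.8, 2156 and 1169 in knockout replicates 1, 2 and 3. B cell markers were high in all 6 libraries, with a summed level of 16 markers of 3935 to 5509 in wild type and 3436 to 4836 in knockout. A lower level in such bulk samples can come from fewer cells with the RNA or from less RNA per cell, which cannot be told apart.

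Adgrl1 was close to absent in all knockout libraries. Its level (gene ENSMUSG00000013033) was 34.6, 27.8 and 52.0 CPM across wild type replicates 1 to 3, resting on 1294, 1109 and 2431 reads, against 0.898, 0.226 and 0.427 CPM across knockout replicates 1 to 3, resting on 27, 9 and 18 reads. The groups lay far apart, and the highest knockout library, replicate 1, was well below the lowest wild type library, replicate 2. The exact 95% Poisson interval, which covers counting error only, was 0.592 to 1.31 CPM in knockout replicate 1 and 0.103 to 0.429 CPM in knockout replicate 2. Wild type exceeded knockout 38.5-fold in pair 1, 123-fold in pair 2 and 122-fold in pair 3, and 73.8-fold between the group means (38.1 ± 12.5 and 0.517 ± 0.345, SD, n = 3). On the scale of log2(value + 1) the change was -4.67 with a standard error of 0.29 over the 3 pairs, the lowest of all 10533 tested genes. In edgeR's paired fit of the reads, where 1 is not added to the values, the change was -6.25.

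**Figure D1:**
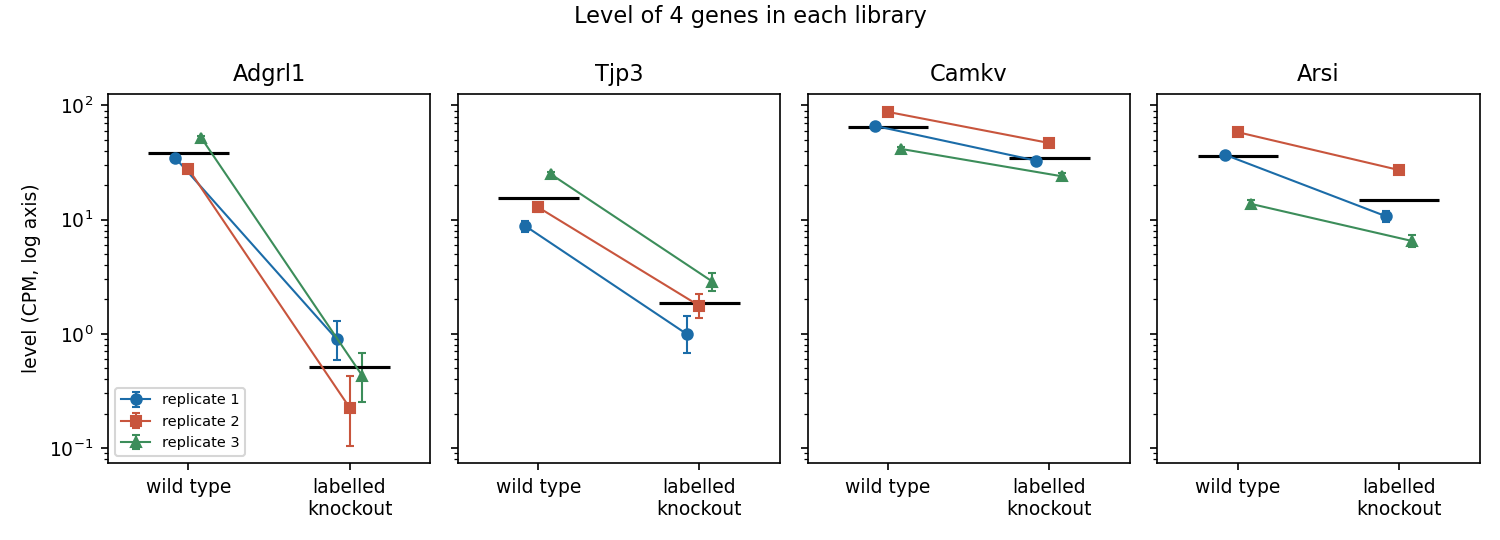
Level in CPM (log axis) of Adgrl1, Tjp3, Camkv and Arsi per library, wild type on the left and knockout on the right; lines join libraries of the same replicate number, black bars are group means and error bars are exact 95% Poisson intervals of the reads. Every line slopes down, and the groups overlap for Camkv and Arsi but not for Adgrl1 and Tjp3.

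No tested gene among the other adhesion receptors and the ligands of latrophilins passed limma, the moderated linear model used as the main test. That model called 0.873% of all tested genes with the pairs and 0.00949% without. At such shares a list this short would rarely hold a call. Adgrl1 had the highest level of the latrophilins in wild type: per kilobase of exon, its wild type mean was 4.44 CPM, against 0.916 for Adgrl2, 0.0145 for Adgrl3 and 0.0131 for Adgrl4. Adgrl3, too low to be tested, was at 0.187, 0.201 and 0.385 CPM in wild type and 0.0998, 0.0502 and 0.142 in knockout. It was lower in all 3 pairs without overlap between the groups, but on few reads, 1 read being 0.0214 to 0.0333 CPM. Of all tested genes 6.29% were lower without overlap. Adgrl2, the next latrophilin by level, was at 0.561, 3.11 and 35.3 CPM across wild type replicates 1 to 3, against 0.499, 5.70 and 31.3 CPM across knockout. It varied far more between replicates than within pairs (log2 change 0.16, limma adjusted p = 0.684 with the pairs). Of 32 listed adhesion receptors and ligands, 12 were tested, and none passed limma at an adjusted p of 0.05 with or without the pairs. Their median log2 change was 0.02, against -0.03 over all tested genes, and 3 were lower in all 3 pairs, where 29.9% of all tested genes were. These were the cadherin-type receptors Celsr1 (-0.41) and Celsr2 (-0.54) and the neurexin Nrxn2 (-0.55). Among ligands, the teneurin Tenm4 (log2 change -0.42) was at 14.0 CPM in wild type replicate 3 and at 0.855 to 7.07 in the other libraries, and the FLRT gene Flrt2 (0.83) was at 9.28 and 2.82 CPM in knockout replicates 2 and 3 and at 0.266 to 1.78 elsewhere. Adgre5, the CD97 receptor of leukocytes and the highest of the list, was at 91.2, 113 and 182 CPM in wild type and 92.2, 72.1 and 125 in knockout. Adgre1, the macrophage receptor F4/80, was at 68.7 and 27.4 CPM in knockout replicates 2 and 3 and at 0.965 to 6.67 elsewhere. The part of the myeloid markers, high in the same libraries, was not tested.

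Tjp3 was lower in knockout by a similar factor in each pair. Its level (ENSMUSG00000034917) was 8.79, 12.8 and 24.9 CPM across wild type replicates 1 to 3, from 329, 511 and 1164 reads, against 0.998, 1.76 and 2.87 CPM across knockout, from 30, 70 and 121 reads. The groups did not overlap, and the order of the replicates was the same in both, with replicate 3 the highest and replicate 1 the lowest. Wild type spanned 2.83-fold from lowest to highest library and knockout 2.88-fold. Within pairs, wild type exceeded knockout 8.81-fold, 7.29-fold and 8.68-fold. The log2 change was -2.45 (standard error 0.15 over pairs), the sixth lowest among all tested genes.

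No tested tight junction gene passed limma, and many of the listed genes were barely present. Tjp1, which encodes ZO-1, was at 0.214, 0.201 and 0.257 CPM in wild type and 0.166, 0.125 and 0.142 in knockout, lower in all 3 pairs without overlap but too low to be tested. The claudin gene Cldn2 was likewise lower without overlap, at 0.0856 to 0.214 CPM against 0 to 0.0474. Both genes rest on few reads, 1 read being 0.0214 to 0.0333 CPM, and 6.29% of all tested genes were lower without overlap. Per kilobase of exon, Tjp3 was at 4.17 CPM in wild type and 0.505 in knockout, and Tjp1 at 0.0286 and 0.0185. Of 42 listed genes, 16 were tested and none passed limma in either fit, where 0.873% (paired) and 0.00949% (unpaired) of all tested genes did. Their median log2 change was -0.06, 3 were lower in all 3 pairs (Magi1, Pard6g and Sympk) and 4 were higher, Patj, Prkci and Ybx3 among them, where 29.9% and 16.7% of all tested genes were. Ocln, which encodes occludin, was at 0.0267 to 0.133 CPM. Among the listed claudins only Cldn4 (log2 change -0.19) and Cldn10 (-0.13) had a mean of at least 1 CPM and were tested. The highest members were Ybx3, a DNA- and RNA-binding protein found at junctions, at 317 ± 31.9 and 336 ± 24.2 CPM, the polyadenylation scaffold Sympk (log2 change -0.11), the polarity kinase Prkci (0.16) and the polarity scaffold Mpp5 (-0.14).

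Camkv was the most abundant of the 4 genes and had the smallest difference. Its level (ENSMUSG00000032936) was 66.2, 87.7 and 41.6 CPM across wild type replicates 1 to 3, against 32.8, 46.9 and 23.9 CPM across knockout, from 987 to 3500 reads per library. Replicate 2 was highest and replicate 3 lowest in both groups, and knockout replicate 2 lay above wild type replicate 3, so the groups overlapped. Within pairs, wild type exceeded knockout 2.02-fold, 1.87-fold and 1.74-fold. The group means were 65.2 ± 23.1 and 34.5 ± 11.6 CPM (SD, n = 3), with a log2 change of -0.88 (standard error 0.063 over pairs). Per kilobase of exon its wild type level was 17.3 CPM, above 12.1 for Camk2d, 5.01 for Camk2g, 3.83 for Camk2b and 1.04 for Camk2a. In knockout it was 9.18, under 12.1 for Camk2d but above Camk2g, Camk2b and Camk2a. The order against Camk2d also depends on the length used, a union of exons of 22.5 kb for Camk2d and 3.76 kb for Camkv. Undivided by length, Camk2d was the higher in both groups.

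Genes for calmodulin and for active calmodulin-dependent kinases did not pass limma. Of 25 listed, 16 were tested and none passed limma in either fit, where 0.873% (paired) and 0.00949% (unpaired) of all tested genes did. The 16 had a median log2 change of -0.01. The sign of that median turned with the scaling, to 0.01 after quantile normalization and to 0.04 when totals were made equal. The calmodulin genes Calm2 and Calm3 had log2 changes of -0.12 and 0.01. The ubiquitous kinase gene Camk2d was at 272 ± 39.3 and 271 ± 37.9 CPM. Its neuronal relatives Camk2a (log2 change -0.51) and Camk2b (-0.42) varied far more between replicates than between groups: Camk2b was at 0.427, 68.6 and 35.8 CPM in wild type and at 0.565, 46.6 and 19.7 in knockout. Of the 16 tested genes 4 were lower in all 3 pairs, Camk2a, Calm2, Dclk2 and Pskh1, and 0 were higher, where 29.9% and 16.7% of all tested genes were. Camk1 and the death-associated kinase Dapk1 were highest in knockout replicates 2 and 3, at 8.68 and 4.74 CPM and at 11.2 and 6.92 CPM, where each was under 1 CPM in the other 4 libraries. These are the libraries with high myeloid markers, whose part in these values was not tested.

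**Figure D2:**
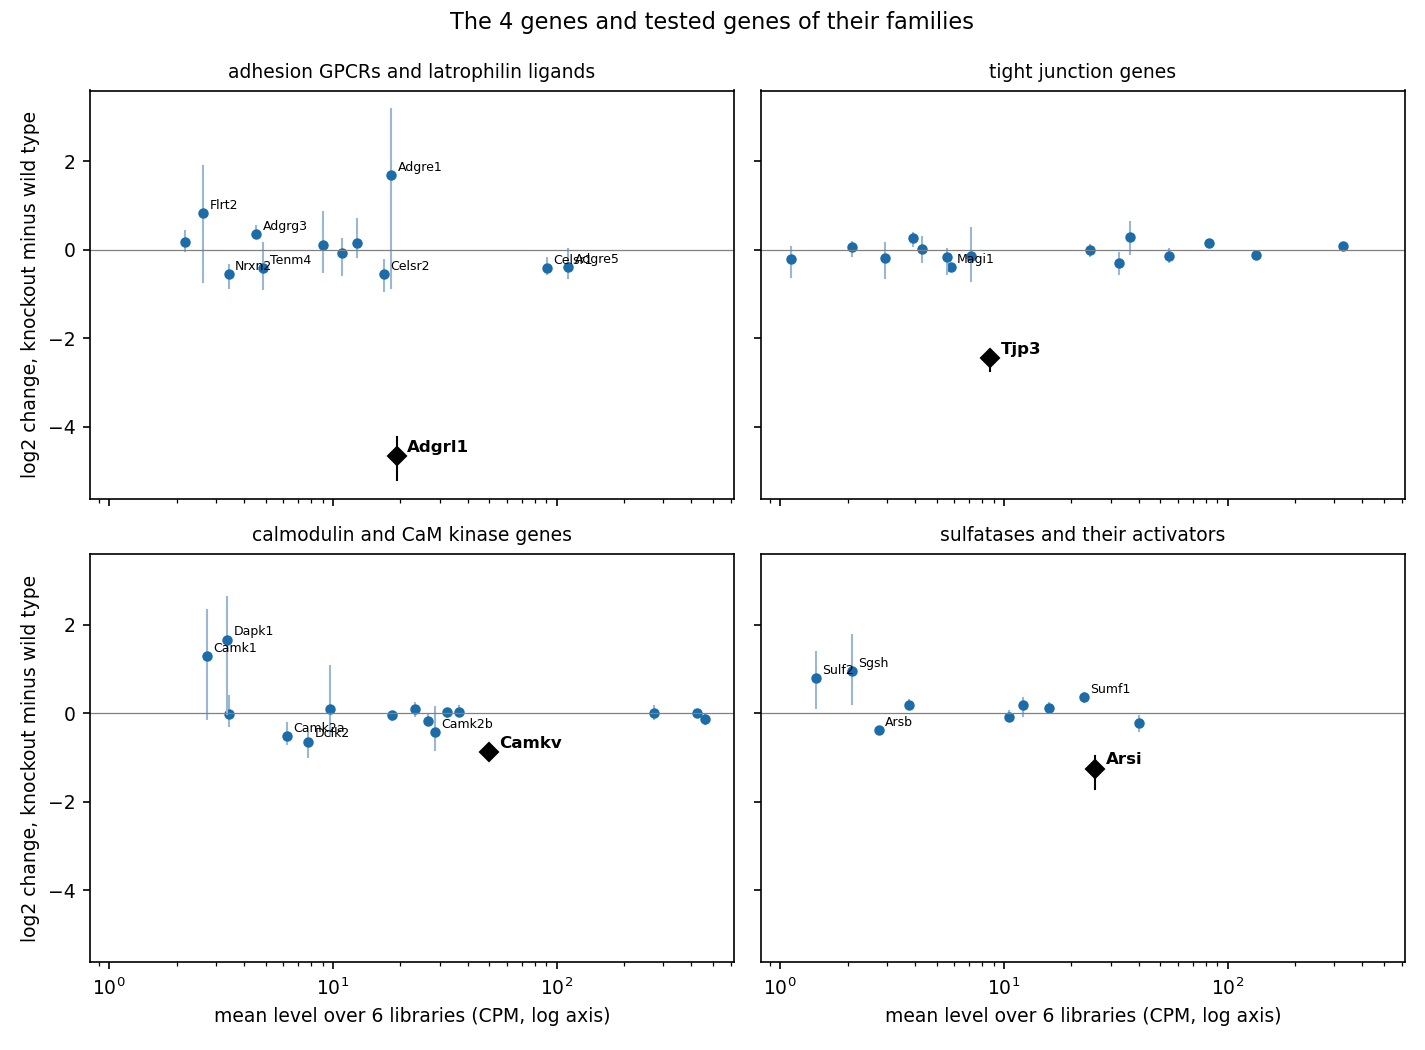
Log2 change of value plus 1, knockout minus wild type (vertical axis), against mean level over the 6 libraries in CPM (log axis) for the 4 genes (black diamonds) and tested genes of their families (blue points, named where the change exceeds 0.3 in either direction); vertical lines span the 3 replicate pairs. Adgrl1 at -4.67 and Tjp3 at -2.45 stand far below their families, and the lines of Camk1, Dapk1 and Adgre1 are long.

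Arsi varied most between replicates. Its level (ENSMUSG00000036412) was 37.0, 58.3 and 13.7 CPM across wild type replicates 1 to 3, against 10.7, 27.2 and 6.50 CPM across knockout, from 274 to 2325 reads per library. As for Camkv, replicate 2 was highest and replicate 3 lowest in both groups, and knockout replicate 2 lay above wild type replicate 3. The span from lowest to highest library was 4.24-fold in wild type and 4.18-fold in knockout, larger than the 3.46-fold, 2.14-fold and 2.11-fold by which wild type exceeded knockout in pairs 1, 2 and 3. The group means were 36.3 ± 22.3 and 14.8 ± 10.9 CPM (SD, n = 3) and the log2 change was -1.25 (standard error 0.23 over pairs). Without the pairs it rested in part on single libraries: it was -0.81 when wild type replicate 2 was left out and -0.82 when knockout replicate 3 was.

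Other sulfatase genes were on median higher in knockout, and none passed limma. Per kilobase of exon Arsi was at 12.2 CPM in wild type, under 16.3 for Galns, a sulfatase of keratan sulfate breakdown, and above 2.94 for the lysosomal Arsa, 1.90 for Arsk, 0.542 for Arsb, 0.274 for Arsg and 0.0137 for Arsj. In knockout it was at 4.97, against 14.1 for Galns and 2.79 for Arsa. Of 14 listed genes, 10 were tested and none passed limma in either fit, where 0.873% (paired) and 0.00949% (unpaired) of all tested genes did. Their median log2 change was 0.19, with 6 higher and 2 lower in all 3 pairs, where 16.7% and 29.9% of all tested genes were. Sumf1, the activating enzyme itself, was at 18.7, 20.1 and 20.1 CPM in wild type and 22.5, 28.2 and 27.0 in knockout (log2 change 0.38, limma adjusted p = 0.113 with the pairs). DESeq2, a test on the reads, gave Sumf1 an adjusted p of 0.0258 with the pairs, where it called 7.01% of all tested genes. Without the pairs its DESeq2 adjusted p was 0.0477, where 110 of 10533 genes passed. The groups did not overlap for Sumf1, and 3.21% of all tested genes were higher in that way. Sumf2, a relative of the activator, had a log2 change of 0.12. Sgsh (5.09 and 3.65 CPM) and Sulf2 (2.79 and 3.32 CPM) were highest in knockout replicates 2 and 3, where myeloid markers were high as well, whose part was not tested. Galns (log2 change -0.21) and Arsb (-0.38) were the genes lower in all pairs.

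Across the 112 family members found in the table, 54 were tested and 0 passed limma, with 2 at an unadjusted p under 0.05 without the pairs and 19 with them. Over all 10533 genes those numbers were 428 and 2213. By edgeR on the reads with the pairs 0 of the 54 passed as well, and by DESeq2 with the pairs 5 did, among them Celsr1 and Dclk2, which were lower, and Dapk1 and Sumf1, which were higher, where DESeq2 called 7.01% of all tested genes and 3.99% as lower. The 4 genes themselves all passed limma with the pairs, a fit that called 0.873% of the tested genes and 0.741% as lower. Adgrl1, Tjp3 and Camkv passed edgeR with the pairs, which called 0.37% and 0.323% as lower, with Arsi at an adjusted p of 0.0650 in edgeR. In limma without the pairs, which called 0.00949% of the tested genes, Adgrl1 passed and Tjp3, Camkv and Arsi did not. Since the same contrast chose them, nothing is read from these counts.

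**Figure D3:**
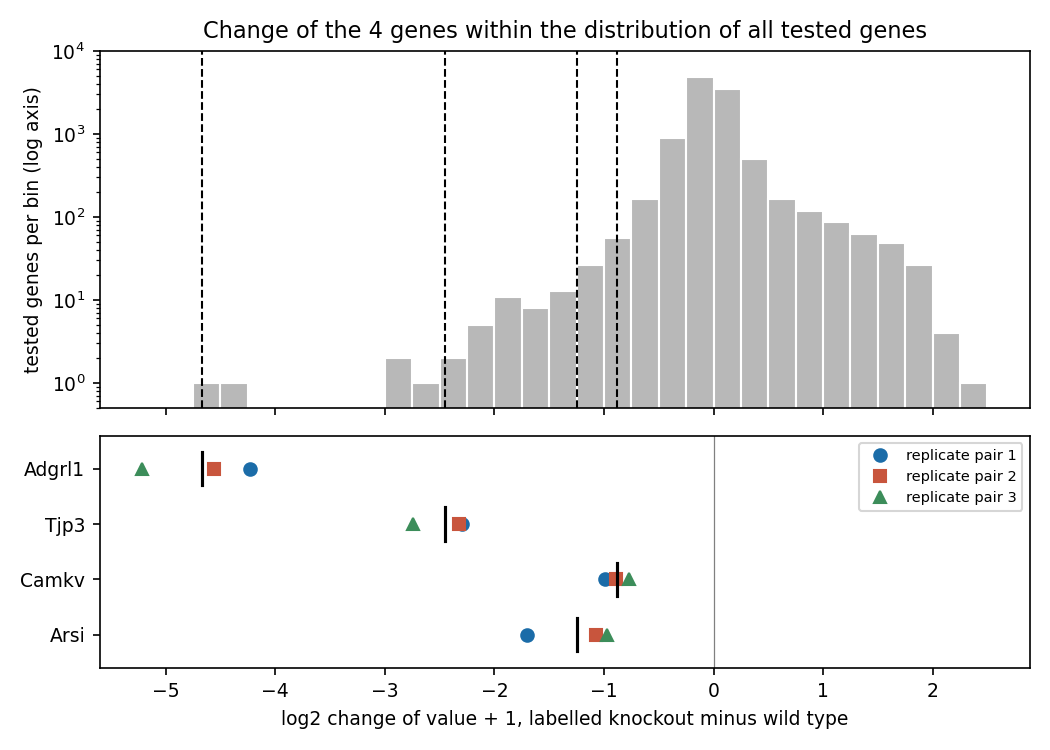
Upper panel, number of tested genes (log axis) by log2 change of value plus 1, knockout minus wild type, in bins of 0.25, with dashed lines at the 4 genes; lower panel, the change of each gene in each replicate pair (symbols) and by group (bar). Adgrl1 at -4.67 is at the far left end, and Camkv at -0.88 lies beyond the 2.5th percentile of all tested genes, which is -0.52.

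The 4 genes differed in how their libraries were ordered. Adgrl1 and Tjp3 did not overlap between groups (6.29% of all tested genes were lower in that way) and were highest in wild type replicate 3. Camkv and Arsi overlapped between groups and were highest in replicate 2 of each group. All 4 were lower in all 3 pairs, as were 29.9% of tested genes. In each pair wild type was at least 1.7 times knockout, which held for 0.779% of tested genes. That ratio was set after the values of these genes were seen, and the same contrast chose them, so nothing is read from it. Camkv and Arsi kept the same order of libraries within a group: the log2 deviations from the group mean in replicates 1, 2 and 3 were 0.085, 0.49 and -0.57 for Camkv and 0.24, 0.88 and -1.12 for Arsi in wild type, and -0.020, 0.48 and -0.46 and -0.21, 1.06 and -0.85 in knockout. The ratio of Camkv to Arsi in CPM ran from 1.51 in wild type replicate 2 to 3.69 in knockout replicate 3. Tjp3 had another order, with replicate 3 the highest and deviations of -0.63, -0.14 and 0.77 in wild type and -0.47, -0.0083 and 0.48 in knockout. Adgrl1 kept no common order, with knockout replicate 1 the highest of its group (0.35) and wild type replicate 3 the highest of the other (0.49).

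The pairs differed in myeloid transcripts, and the values of the 4 genes, on which they were chosen, are set beside them here. In pair 1, where the summed myeloid markers were 61.5 CPM in wild type and 39.8 in knockout, the log2 changes of Adgrl1, Tjp3, Camkv and Arsi were -4.23, -2.29, -0.99 and -1.70. In pairs 2 and 3, where those markers were higher in knockout, they were -4.55 and -5.22, -2.32 and -2.74, -0.89 and -0.77, and -1.07 and -0.98. With knockout replicates 2 and 3 left out, a fit that ignores the pairs, the 4 changes were -4.32, -2.93, -0.90 and -1.46. The part of myeloid transcripts in these differences was not tested.

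Most markers of the tissues these genes are known from were near the floor in every library. Of 35 neural markers, 26 had a mean under 1 CPM, among them Snap25, Syt1, Gad1 and Rbfox3, and of 26 epithelial markers 17 did, among them Epcam, Cdh1 and Krt8. The summed neural level was 212 to 276 CPM in wild type and 165 to 266 in knockout, carried mainly by the neuronal tubulin gene Tubb3 (98.8 ± 35.8 and 75.0 ± 64.7), the ubiquitin hydrolase gene Uchl1 (51.9 ± 16.5 and 50.9 ± 21.0) and the myelin gene Mbp (40.1 ± 18.5 and 33.5 ± 16.1). The summed epithelial level was 32.7 to 50.6 CPM in wild type and 25.5 to 46.8 in knockout, led by the protease inhibitor gene Spint2 (17.9 ± 8.31 and 11.4 ± 4.20), Evpl (-0.15 on the log2 scale), Pkp3 (0.06) and Ap1m2 (-0.17). No marker of either list passed limma in either fit, where 0.873% (paired) and 0.00949% (unpaired) of all tested genes did. The ranges of the sums overlapped between groups. Of the 9 tested neural markers, 3 were lower in all 3 pairs, the synaptic scaffold gene Dlg4 (log2 change -0.50), the vesicle gene Vamp2 (-0.37) and Mbp (-0.26), and 0 were higher. The groups did not overlap for Dlg4 and Vamp2, where 6.29% of all tested genes were lower in that way. Of the 9 tested epithelial markers 3 were lower and 3 higher in all 3 pairs. DESeq2 with the pairs called Spint2 as lower (adjusted p = 0.0299), where it called 3.99% of all tested genes as lower. The 13 stromal and endothelial markers summed to 53.3 to 63.9 CPM in wild type and 65.8 to 105.3 in knockout, without overlap between the groups. Among single tested genes 3.21% were higher in that way. Of the 13, 11 had a mean under 1 CPM, and Pecam1 (log2 change 0.36) led, with Vwf (1.03) the other tested marker. The part of these transcripts in the differences of the 4 genes was not tested. T and NK cell markers summed to 1.16 to 5.29 and 2.13 to 16.4 CPM, led by Klrb1c (0.20) and Cd8a (0.99). Among B cell markers the highest were Cd24a (log2 change -0.39) and Cd79b (0.05), and among myeloid markers Lyz2 (1.97) and Mpeg1 (1.52).

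The genes with profiles most like each of the 4 were sought among tested genes, leaving out predicted and clone names (Gm and Rik). The measure was the root mean square difference of centred log2(value + 1) over the 6 libraries. These profiles hold the same group difference that chose the 4 genes, so likeness is a description. Nearest to Adgrl1 were Slc16a3, the lactate exporter MCT4 (0.86), Bnip3, a mitophagy receptor (1.06), Tjp3 itself (1.21), Prickle1, a planar cell polarity gene (1.25), and Fut10, a fucosyltransferase (1.32). Slc16a3 was at 167, 76.6 and 37.5 CPM in wild type and at 3.43, 3.49 and 1.54 in knockout, so its order within wild type differed from that of Adgrl1. Nearest to Tjp3 were Mgarp, a mitochondrial protein gene (0.41), Ak4, a mitochondrial adenylate kinase (0.60), Maml3, a NOTCH coactivator (0.61), Insr, the insulin receptor (0.61), and Unc5a, a netrin receptor (0.69). Mgarp was at 17.0, 16.8 and 23.0 CPM in wild type and 2.30, 4.17 and 7.42 in knockout, and like Tjp3 it was highest in replicate 3 of each group.

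Camkv had far closer neighbours in profile. Cxcr5, the chemokine receptor that guides B cells to follicles, differed from it by 0.091, at 38.0, 47.1 and 22.6 CPM in wild type and 16.2, 26.5 and 11.2 in knockout. Both were highest in replicate 2 and lowest in replicate 3 of each group. Nol4l (0.13), Tmem106c (0.17), Clec2i (0.17) and the thymidine kinase gene Tk1 (0.18) came next. Nearest to Arsi were Mpp3, a membrane scaffold (0.38), Cxcr5 (0.39), Nav2, a neuron navigator (0.40), Prelid2 (0.40) and Camkv (0.45). Between the 4 genes, Camkv and Arsi were the most alike (0.45), and Adgrl1 and Arsi the least (2.02).

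**Figure D4:**
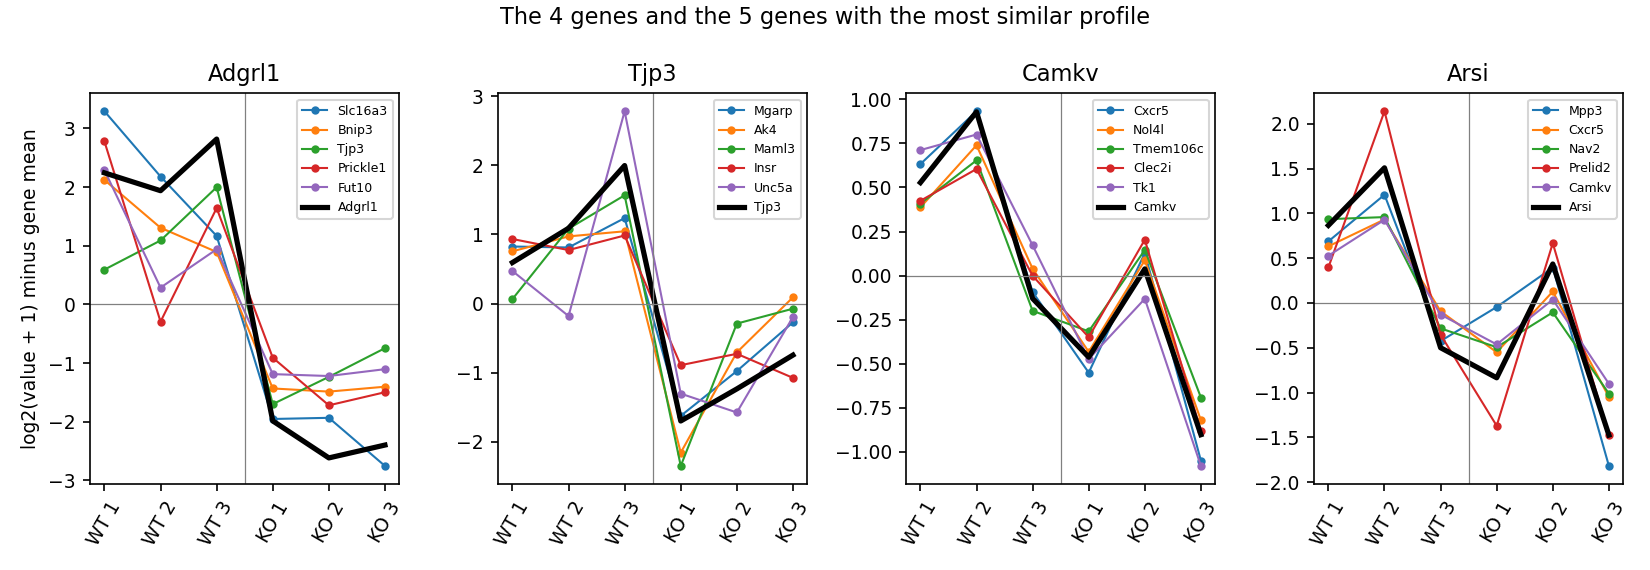
Log2(value + 1) minus the gene's mean over the 6 libraries (vertical axes, which differ in range) for Adgrl1, Tjp3, Camkv and Arsi (black) and the 5 tested genes nearest to each in profile (colours), by library (WT, wild type; KO, labelled knockout). Genes with predicted or clone names (Gm and Rik) were left out. The lines around Camkv lie close together, with root mean square differences of 0.091 to 0.18, and those around Adgrl1 lie apart, at 0.86 to 1.32.

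The genes next to the 4 on the chromosome did not pass limma, and their log2 changes ran from -0.51 to 1.29. The 3 nearest tested genes on each side were taken in the order of the RefSeq table of GRCm38.p6, 24 in all. None passed limma in either fit. At an unadjusted limma p under 0.05 there were 0 without the pairs and 8 with them, where 428 and 2213 of all 10533 genes were. None passed edgeR with the pairs. DESeq2 with the pairs called 2 as lower, where it called 7.01% of all tested genes and 3.99% as lower. These 2 were Fam212a beside Camkv (log2 change -0.48) and the ribosomal protein gene Rps14 near Arsi (-0.31). The median over the 24 neighbours was -0.09 on the log2 scale. Of the 24, 11 (45.8%) were lower in all 3 pairs, where 29.9% of all tested genes were.

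Beside Adgrl1 lay its relative Adgre5 (log2 change -0.39) and the histone chaperone gene Asf1b (-0.09), followed by Ddx39 (0.12) on one side and Prkaca (-0.07) and Samd1 (0.01) on the other. Tjp3 was flanked by Apba3 (-0.27) and Pip5k1c (0.13), with Mrpl54 (-0.11), Matk (-0.48), Cactin (0.00) and Tbxa2r (0.21) beyond. Camkv was flanked by Mon1a (-0.09) and Traip (0.02), with Rbm6 (0.03), Rbm5 (-0.15) and Uba7 (-0.23) beyond. Around Arsi lay Tcof1 (-0.13), Cd74 (0.08) and Hmgxb3 (-0.07), besides 2 genes with patterns of their own. Camk2a, next to Arsi, was at 16.2, 1.53 and 5.61 CPM in wild type and 9.61, 1.18 and 3.32 in knockout, lower in each pair but with replicate 2 the lowest, where Arsi was highest. Csf1r, which encodes the receptor of a macrophage growth factor, had 72.3 and 42.2 CPM in knockout replicates 2 and 3 and 1.80 to 10.6 in the other libraries, like the myeloid markers it belongs to.

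**Figure D5:**
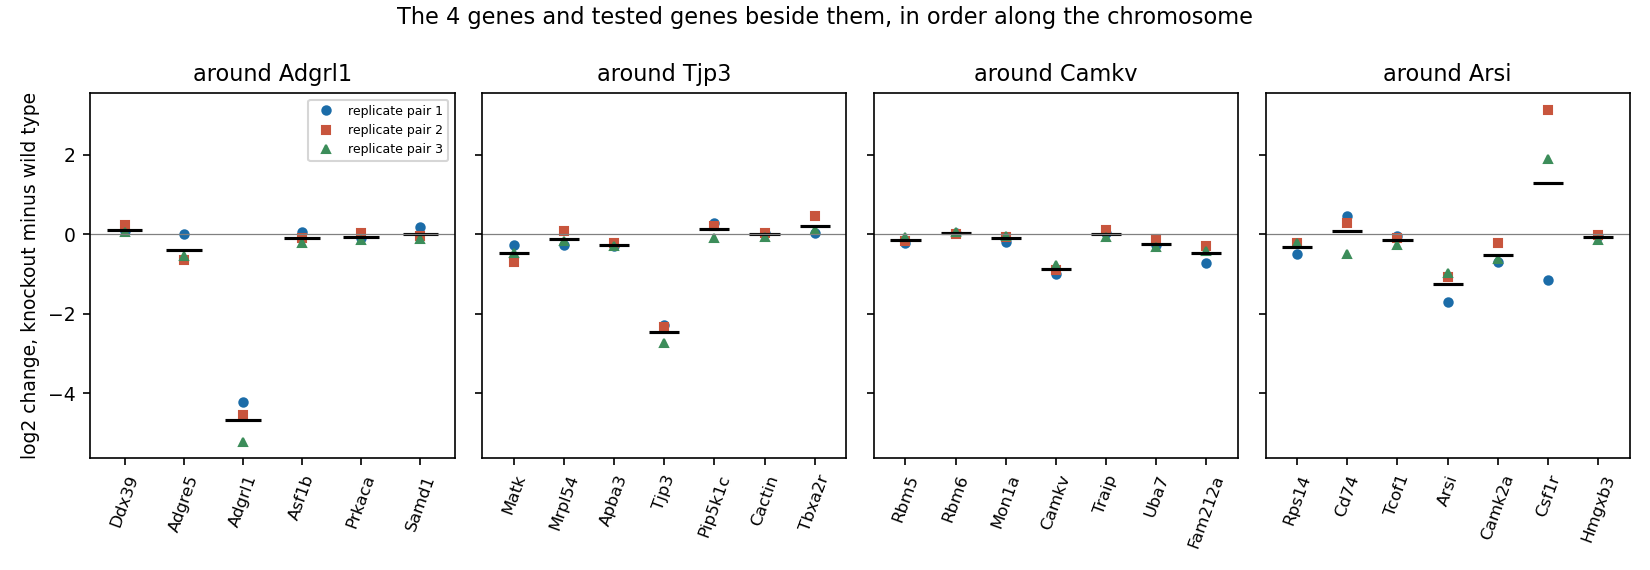
Log2 change of value plus 1, knockout minus wild type (vertical axis), for Adgrl1, Tjp3, Camkv and Arsi and tested genes beside them in their order along the chromosome (distances not to scale); symbols are replicate pairs and bars the group change. Camkv and Fam212a at -0.88 and -0.48 are the lowest bars of their panel, and the symbols of Csf1r run from -1.15 to 3.13.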

How the data were processed

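RNA-seq of 6 libraries was analysed, 3 per group. Per the submitters' processing notes, the tools were STAR 2.4.2a, HTSeq, edgeR and CASAVA and the build was mm9, without role or order. The deposited table holds a signal per gene, which the authors' file calls FPKM. Within each library 100% of the values were whole multiples of a single step, with a tolerance of 0.01 reads, so they are reads divided by an effective library size (0.970 to 1.04 times the total) and not by length. Which annotation and strand setting were used is not given in the sources used here, so reads of overlapping genes may be shared.

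The fit was limma 3.58.1 (R 4.3.3) on log2(value + 1), which understates changes of low genes, with trended variance, two-sided, Benjamini-Hochberg adjusted over the 10533 genes with a mean of at least 1, at 0.05. Count tests on the recovered reads (edgeR 4.0.16, quasi-likelihood, and DESeq2 1.42.0) were alternatives. So were the replicate number as a block, other pseudocounts, filters and scalings, and left-out libraries. The code was tested on simulated data without replicate effects, and edgeR and DESeq2 with the block were not among the fits tested. As a check of pairing, each library's deviation from its group mean was correlated over genes with that of the other group's libraries: r was 0.73, 0.73 and 0.84 for equal replicate numbers and -0.61 to -0.14 for unequal ones. Equal numbers were therefore treated as pairs. Deviations from a group mean cancel within the group, so the negative values for unequal numbers follow in part from the centring. The design text speaks of biological replicates and names no animals, and a p-value here sets a group difference against the spread of these samples only. No 2 libraries agreed within counting noise. Lengths are unions of GENCODE M21 exons.

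The 4 genes and the 10 lists (230 entries, 229 found, 1 through another symbol) were chosen with earlier results of these data known. Named genes are the 4 genes, up to 4 of the highest tested members of the first 6 lists and 2 of the others, list members that passed, the 5 nearest profiles and the 3 nearest tested genes on each side. Further list members named for their values (such as Adgrl2 or Camk2a) were chosen after these were seen. Some list members and neighbours that the rule names are not reported here, and the counts include them. Figures used matplotlib 3.10.9 under Python 3.11.15.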

Additional observations from a re-analysis of the deposited data

How the results depend on the processing

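The log2 changes of Adgrl1, Tjp3, Camkv and Arsi were below 0 in the reported fit and in all 21 alternatives. Adgrl1 moved by more than its replicate spread with a pseudocount of 0.5 (-5.25) or 2 (-3.96). It also did so on the reads, at -6.18 with edgeR and -6.18 with DESeq2, and at -6.25 and -6.29 with the replicate block. The pseudocount fits differ from the reported one only in the constant added before the logarithm. Fits on the reads also differ in model and scaling, whose parts were not tested. Leaving out a library or a pair gave -4.88 to -4.39 for Adgrl1, -2.77 to -2.07 for Tjp3, -1.17 to -0.64 for Camkv and -1.81 to -0.81 for Arsi.

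Counts of genes past the threshold depended on the design far more. Over all genes limma called 1 without the replicate block and 92 with it (78 lower, 14 higher), 0 without a filter on low values or under quantile normalization, and 2 with a mean of at least 5. Count tests called 0 with edgeR (582 at an unadjusted p under 0.05) and 110 with DESeq2 (79 lower, 31 higher), and with the replicate block 39 and 738. Leaving out a library gave 0 in each case, with 234 to 722 genes at an unadjusted p under 0.05, and with the block 840 without pair 1 and 0 without pair 2 or pair 3 (1415 and 1240 at that level). It was also 0 without knockout replicates 2 and 3, an alternative chosen after seeing the data, with 319 at that level, where the lone knockout library is assumed to vary like the wild type ones. Of the family members 0 passed limma, against 1 with DESeq2, 5 with DESeq2 and the replicate block and 0 to 12 when a library or pair was left out, the 12 without pair 1. Of the chromosome neighbours 0 passed, against 2 with DESeq2 and the replicate block and 0 to 2 when a library or pair was left out, the 2 without pair 1. The causes were not tested. At 9 to 27 reads, the level of Adgrl1 in knockout is limited by depth. In limma the block changed the calls of Tjp3, Camkv and Arsi and no call of a family member or neighbour.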
